A study of Mus musculus with 2 samples.

Results

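The genes described here are enzymes that chemically modify drugs, hormones, fatty acids and reactive by-products so that cells can use or excrete them. They comprise 75 cytochrome P450 genes of families 1 to 4 (CYP), 21 UDP-glucuronosyltransferase genes (UGT) and 18 genes for cytosolic glutathione S-transferases of the alpha, mu, pi and theta classes (GST). These 114 genes were taken from the 32285 genes of the count tables by symbol alone. The symbols were Cyp with a family number from 1 to 4, 1 letter and a number, Ugt1 to Ugt3 with any ending, and Gsta, Gstm, Gstp or Gstt with a number. P450 symbols that end in a further letter, such as Cyp4a12a, were not included.

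Expression was measured by single cell RNA sequencing (scRNAseq) of whole kidneys from male wildtype C57BL/6J mice aged 19 weeks. The ischemia library came from a kidney that had undergone left-sided unilateral ischemia of 27 minutes with reperfusion for 24 hours, and the control library came from an uninjured contralateral kidney. The control kidney thus came from an animal that had been operated on, and no kidney of an unoperated mouse was analysed here. The labels do not state whether both kidneys came from the same mouse, so 1 animal may underlie both libraries. Each condition is 1 library, so the differences below have no replicate check and no p-value, and every interval covers counting error only.

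Cytochrome P450 enzymes sit in the endoplasmic reticulum, where they receive electrons from P450 reductase and insert oxygen into their substrates. In the kidney, Cyp4a enzymes hydroxylate the end of fatty acid chains, including that of arachidonic acid, and Cyp2c and Cyp2j enzymes make epoxides of arachidonic acid that act on vessels and salt transport. UDP-glucuronosyltransferases join glucuronic acid to small molecules, and glutathione S-transferases join glutathione to electrophiles such as products of lipid peroxidation. The proximal tubule, which reabsorbs most of the filtrate and secretes organic anions, is the part of the nephron best known for all of these reactions.

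Promoter sequences of 4 members are shown because these genes lay at the ends of the range of change in proximal tubule cells: Gsta1 and Gstm5 had among the highest ratios of ischemia to control level, and Cyp2d26 and Cyp2j11 among the lowest. Each sequence runs 5′ to 3′ on the gene's own strand from 250 bases before to 50 bases after the RefSeq start site (RefSeq, build GRCm38.p6), and capitals mark matches to the motifs named below. The windows lie at chr9:78230419-78230718 (+) for Gsta1, chr3:107895604-107895903 (+) for Gstm5, chr15:82794196-82794495 (-) for Cyp2d26 and chr4:96348631-96348930 (-) for Cyp2j11.
Gsta1: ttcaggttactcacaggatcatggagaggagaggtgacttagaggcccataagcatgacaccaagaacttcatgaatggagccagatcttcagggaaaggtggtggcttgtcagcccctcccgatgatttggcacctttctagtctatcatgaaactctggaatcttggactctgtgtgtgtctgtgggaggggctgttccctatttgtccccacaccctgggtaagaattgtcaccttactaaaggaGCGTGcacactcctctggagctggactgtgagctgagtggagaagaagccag
Gstm5: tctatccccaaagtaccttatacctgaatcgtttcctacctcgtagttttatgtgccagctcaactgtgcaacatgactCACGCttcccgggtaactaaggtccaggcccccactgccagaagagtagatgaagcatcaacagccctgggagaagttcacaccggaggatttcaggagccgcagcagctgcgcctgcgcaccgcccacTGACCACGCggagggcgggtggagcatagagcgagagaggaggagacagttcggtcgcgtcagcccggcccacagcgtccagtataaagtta
Cyp2d26: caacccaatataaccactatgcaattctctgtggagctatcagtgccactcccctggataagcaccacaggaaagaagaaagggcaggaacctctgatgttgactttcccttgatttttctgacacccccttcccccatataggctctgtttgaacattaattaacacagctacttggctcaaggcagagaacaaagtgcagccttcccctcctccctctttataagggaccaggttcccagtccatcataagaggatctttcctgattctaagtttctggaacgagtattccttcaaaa
Cyp2j11: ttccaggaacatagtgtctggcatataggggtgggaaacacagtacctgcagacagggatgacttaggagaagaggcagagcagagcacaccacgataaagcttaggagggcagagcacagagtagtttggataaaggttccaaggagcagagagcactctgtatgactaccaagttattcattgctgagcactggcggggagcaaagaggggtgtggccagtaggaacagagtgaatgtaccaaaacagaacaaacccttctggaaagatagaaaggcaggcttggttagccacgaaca

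A promoter window was found for 97 of the 114 members. Both strands were searched for 4 motifs: TGACNNNGC for the antioxidant response element bound by Nrf2 (ARE), GCGTG for the core bound by the aryl hydrocarbon receptor (XRE), CAAAGTCCA for HNF4 and, by its consensus element, that for PPAR. The ARE letters lay in windows of 9 of 97 members (9.28%), each member counted once, and in 12.4% of all 32851 promoter windows. In Gstm5 they began 42 bases before the start site, where they overlapped the XRE letters at 38 bases before it on the other strand, and a further XRE match began 171 bases before the start. Gsta1 held an XRE match that began 2 bases before its start, and the windows of Cyp2d26 and Cyp2j11 held none of the 4 motifs. XRE letters lay in windows of 21 of 97 members (21.6%) and in 32.4% of all windows. HNF4 letters lay in windows of 8 members (8.25%), which were 6 Cyp2c and 2 Cyp3a genes, and in 0.475% of all windows. A window was found for 51 members with at least 50 UMIs (mRNA counts, defined below) in both libraries together. Of these 51, only Cyp2c69 held HNF4 letters (1.96%). PPAR letters were found in no member window. A match describes letters in these windows and was not tested as a binding site.

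After the filters of the study, 12586 cells with 124679362 UMIs remained in the control library and 13116 cells with 128733541 UMIs in the ischemia library. UMIs are unique molecular identifiers, which count captured mRNA molecules, and levels are given as CPM, the UMIs of a gene scaled to a fixed total of all UMIs in the same cells. Libraries of this kind read the 3′ end of each mRNA, so CPM values are not divided by gene length and can be set beside each other between genes. The libraries shared 58 cell barcodes (0.461% of control and 0.442% of ischemia cells). Proximal tubule (PT) cells were called from 15 general PT marker genes together with the marker lists of early and late PT. They were then divided into sub-clusters. Early PT cells, marked by genes of segments S1 and S2, numbered 654 in control and 485 in ischemia, and late PT cells, marked by S3 genes, numbered 660 and 531. A small cluster that met the markers of injured PT held 11 control and 143 ischemia cells, and a further 2475 control and 1634 ischemia PT cells had no clear segment. The kidney injury gene Havcr1 was at 1.0 CPM in early PT cells of control and 87.8 CPM in those of ischemia, and at 12.9 and 737 CPM in late PT cells. The cluster called injured PT had 727 CPM of Havcr1 in ischemia, no higher than late PT cells. Below it has that name only as the label of its marker list. Vcam1 was the only gene of that list among its 10 leading genes, at 311 CPM in its control and 10.5 CPM in its ischemia cells. Vim and S100a6, also among the leading genes, are not on the list. In ischemia the list summed to 29986 CPM in this cluster, beside 19869 CPM in early and 17231 CPM in late PT cells. The largest cluster, of 4707 control and 5882 ischemia cells with medians of 898 and 797 UMIs, and a further cluster of 835 and 754 cells were left unnamed.

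Of the 114 members, 95 had at least 1 UMI in the kept cells and 63 had at least 50 UMIs in both libraries together. The 63 comprised 35 CYP, 12 UGT and 16 GST genes. The 19 members with no UMI in either library were mostly P450 genes, such as Cyp1a2, Cyp2a12, Cyp2c37, Cyp2c50, Cyp2c54, Cyp2c70 and Cyp3a16, and also included Ugt1a8, Ugt2a2 and Ugt2b1. Cyp3a11, a main hepatic drug-metabolizing P450, had 1 UMI in all. A count of 0 allows up to 3 UMIs in each library, so these genes were not detectable at this depth.

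The 114 members together gave 594528 UMIs in control, or 0.477% of the library, and 438800 UMIs in ischemia, or 0.341%. The CYP share went from 0.246% to 0.139% and the UGT share from 0.0871% to 0.0543%, while the GST share was 0.143% in control and 0.147% in ischemia. PT-like cells made up 30.2% of control and 21.3% of ischemia cells, and the 2 unnamed clusters held 7.60% and 7.58% of the members' UMIs. PT-like cells held 81.6% (95% Clopper-Pearson interval 81.5 to 81.7) of the members' UMIs in control and 81.8% (81.7 to 81.9) in ischemia. Of the UMIs of all genes, the same cells held 57.4% in control and 53.0% in ischemia. Since whole-library shares move with the mix of cells, levels are given below within each cell type. Free RNA released by broken cells also enters other droplets. As a gauge of it, the 15 PT marker genes had in endothelial cells a median level of 0.243 of that in PT-like cells in control and 0.177 in ischemia. In thick ascending limb cells (TAL) this gauge was 0.0819 and 0.0565. In the largest unnamed cluster it was 0.735 and 0.863, and the members summed to 5805 and 4872 CPM there. That cluster scored best for the PT list, but 0 of its 10 leading genes were PT markers. Whether it holds shallow PT cells or free RNA was not tested, so the PT-like shares of cells above may leave out PT cells.

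**Figure D1:**
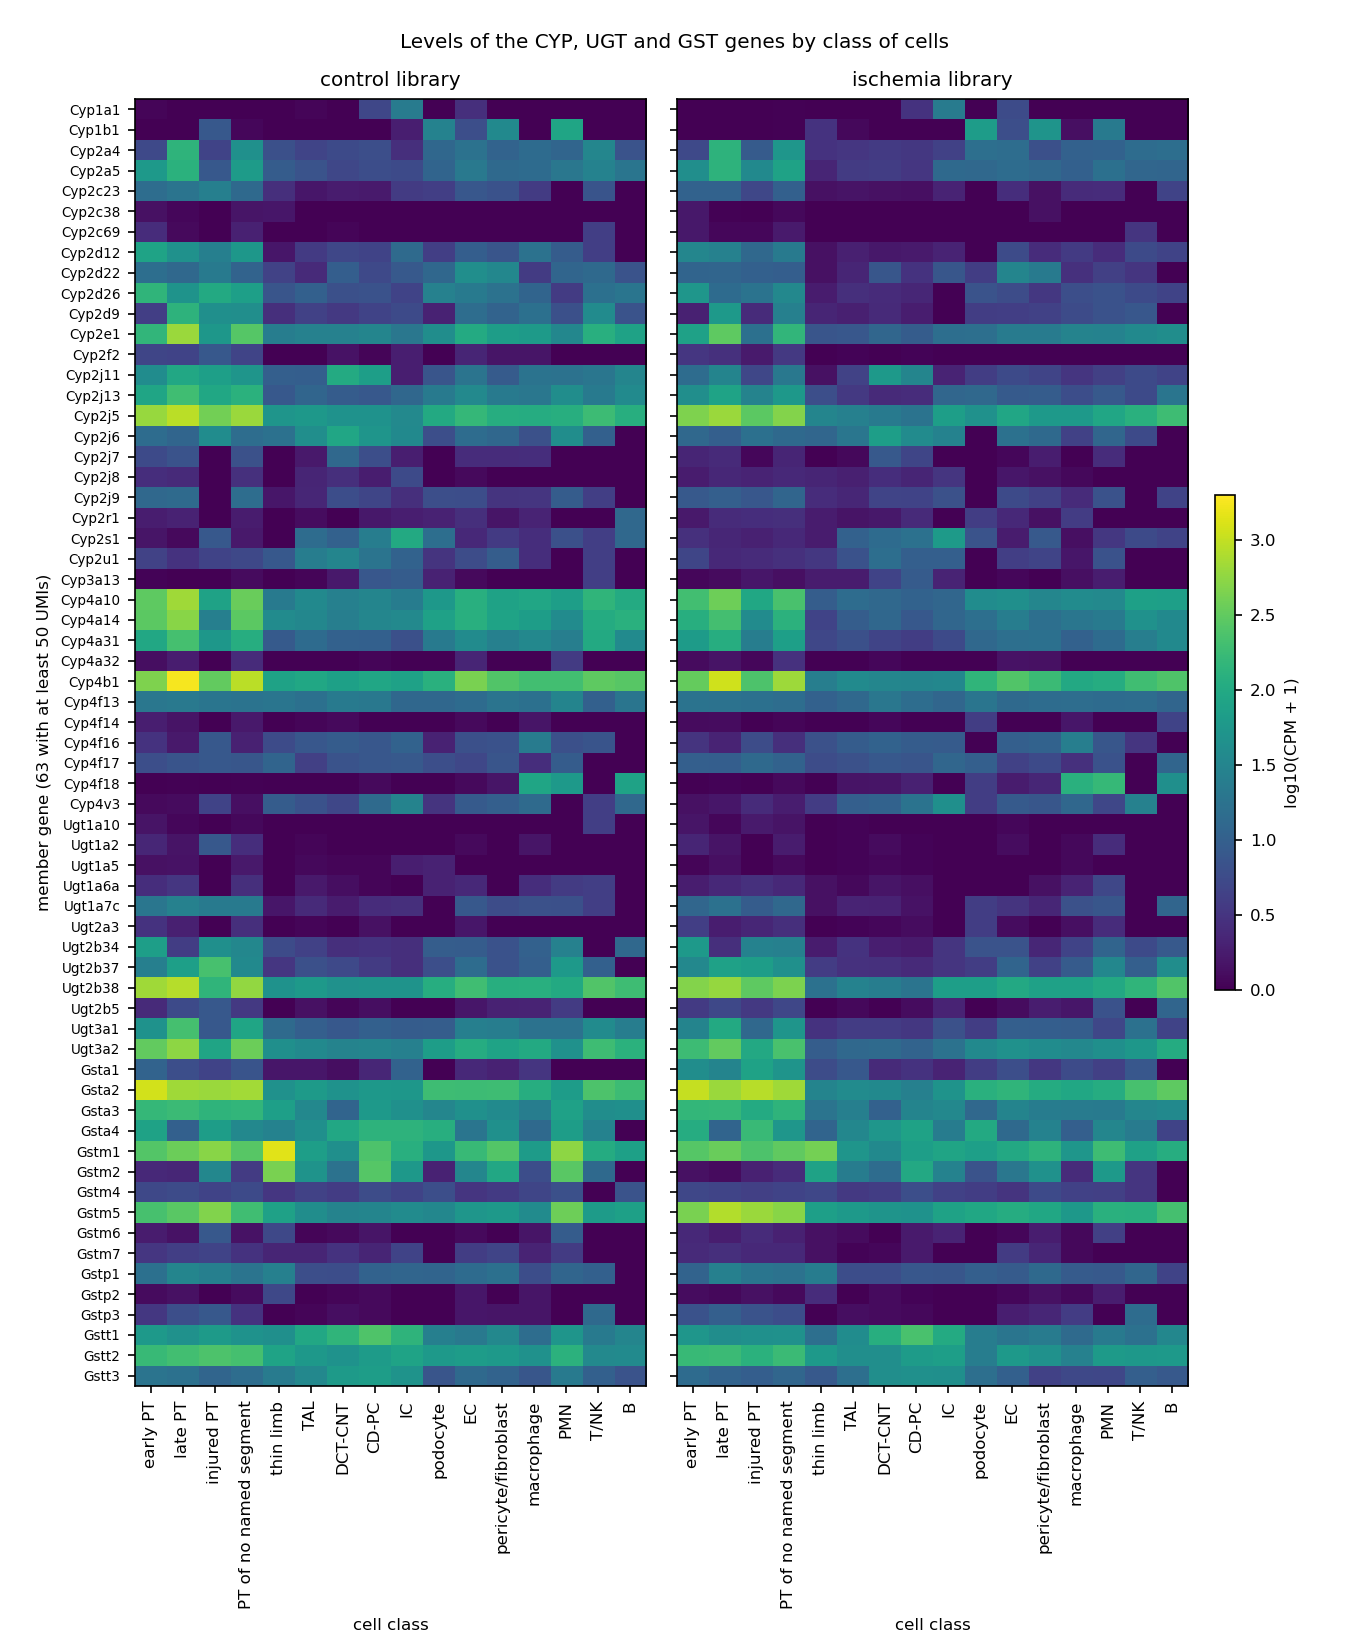
Levels of the 63 members with at least 50 UMIs in each cell class, as log10 of CPM plus 1, with the control library on the left and the ischemia library on the right. Rows are genes in the order of their families and columns are cell classes. The broad bright rows in the PT columns are genes such as Gsta2, Cyp4b1, Cyp2j5 and Ugt2b38, and single bright cells outside the PT include Gstm1 in the thin limb, Cyp2s1 in intercalated cells and Cyp4f18 in macrophages and neutrophils.

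In control PT cells the most abundant members came from all 3 families. Gsta2, an alpha-class transferase that detoxifies lipid peroxides, had 1194 CPM in early and 668 CPM in late PT cells. Cyp4b1, a fatty acid hydroxylase, had 459 CPM in early and 1800 CPM in late PT cells. Ugt2b38, a glucuronosyltransferase, had 669 and 854 CPM, and Cyp2j5, an epoxygenase of arachidonic acid, had 625 and 899 CPM. Gstm1, Ugt3a2, Cyp4a10, Cyp4a14 and Gstm5 lay between 216 and 677 CPM in both segments of the control library.

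In early PT cells, most CYP members were lower in ischemia than in control, with intervals below 1 for 20 of 26 genes, while UGT and GST members went both ways. Of these CYP genes, all with at least 50 UMIs, 9 were at least 2-fold lower in ischemia and 1 was at least 2-fold higher. None of 10 UGT genes passed the fold in either direction, with 6 intervals below 1 and 3 above it, and of 13 GST genes none was lower and 2 were higher. Thus 9 of 49 members were at least 2-fold lower, where 1.95% of all 11451 genes were, and 3 of 49 were at least 2-fold higher, where 4.25% of all genes were. Intervals lay below 1 for 2100 of these 11451 genes and above 1 for 4072. The median log2 ratio was -0.58 for CYP, -0.39 for UGT and -0.05 for GST genes, beside 0.10 for all genes. The UGT counts include 3 Ugt1a genes, whose single values are uncertain for a reason given below, and without them the median of the other 7 was -0.29. The PT marker genes themselves were lower in ischemia, with a median log2 ratio of -0.88 in early PT cells and 6 of 15 at least 2-fold lower, and their part in these differences was not tested.

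Among genes of late PT cells, 7 of 24 CYP genes, 1 of 8 UGT genes and none of 13 GST genes were at least 2-fold lower in ischemia, and 2 GST genes were at least 2-fold higher. These 8 lower members of 45 stand beside 3.65% of all 11305 genes that were lower by this fold, and the 2 higher members beside 5.83%. Intervals lay below 1 for 2476 of these 11305 genes and above 1 for 4150. The median log2 ratios were -0.70 for CYP, -0.72 for UGT and -0.16 for GST genes, beside 0.09 for all genes and -0.93 for the PT markers, of which 6 of 15 were at least 2-fold lower. Without 2 Ugt1a genes the median of the other 6 UGT genes was -0.63. Of 23 CYP genes measured in both segments, 20 were lower in ischemia in each, and for 16 of them both intervals lay below 1. Of all 10971 genes read in both segments, 29.5% were lower in each and 14.1% had both intervals below 1. The early and late values come from the same pair of libraries, so they are not independent.

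**Figure D2:**
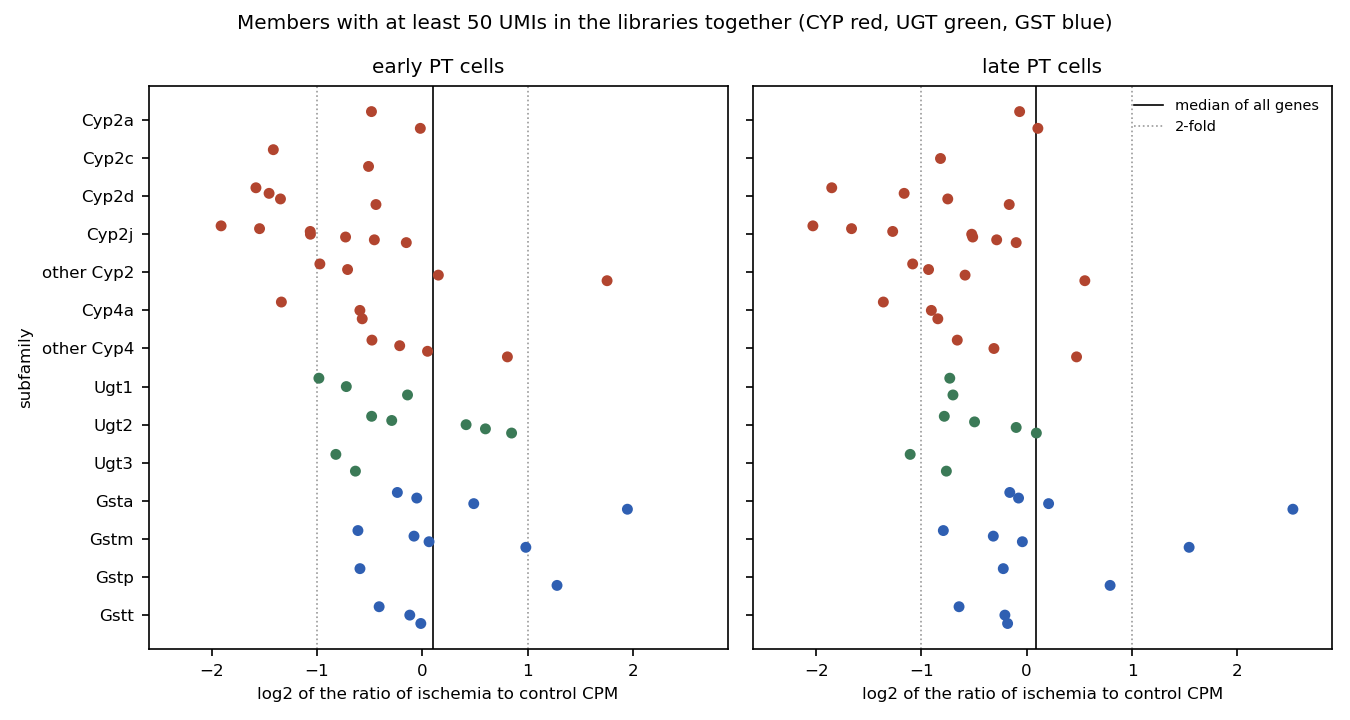
Log2 ratio of ischemia to control CPM for each member with at least 50 UMIs, grouped by subfamily, in early PT and late PT cells. Each point is 1 gene. The solid vertical line marks the median of all genes, and the dotted lines mark 2-fold change. Most points of the Cyp2d, Cyp2j, Cyp4a and Ugt3 rows lie to the left of the solid line. Gsta1 and Gstm5 are the points farthest to the right in late PT cells.

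Summed levels weight the abundant genes. In early PT cells the CYP sum was 2444 CPM in control against 1511 CPM in ischemia (ratio 0.618, 95% interval 0.610 to 0.627), the UGT sum was 1162 and 804 CPM (0.692, 0.679 to 0.705), and the GST sum was 2183 and 2268 CPM (1.04, 1.03 to 1.05). The late PT cells had CYP sums of 5631 and 3323 CPM (0.590, 0.585 to 0.596), and their UGT sum was 1727 and 1131 CPM (0.655, 0.644 to 0.666). The GST sum in late PT cells was 1813 CPM in control against 2288 CPM in ischemia (1.26, 1.24 to 1.28), although 7 of its 13 genes had intervals below 1 and 3 above it, and Gstm5 alone went from 288 to 839 CPM. Among GST classes only the mu class had a higher sum in ischemia by more than its interval in both segments, with 483 and 705 CPM in early PT cells (1.46, 1.42 to 1.49) and 655 and 1194 CPM in late PT cells (1.82, 1.78 to 1.86). The mu genes did not rise as a class, since the median ratio of the 4 read was 0.995 in early and 0.883 in late PT cells. Gstm5 had the highest of their ratios in each segment (1.98 and 2.91). In late PT cells it alone of the 4 had an interval above 1, and 1 other had an interval below 1.

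Among fatty acid hydroxylases, Cyp4a14 was the member with the lowest ratios. It had 297 CPM in control against 118 CPM in ischemia in early PT cells (ratio 0.395, 95% interval 0.378 to 0.414), and 522 and 203 CPM in late PT cells (0.389, 0.376 to 0.403). Cyp4a10 went from 301.5 to 199.9 CPM in early PT cells (0.663, 0.638 to 0.689) and from 677 to 377 CPM in late PT cells (0.557, 0.542 to 0.573). Cyp4a31 had ratios of 0.673 and 0.534 and Cyp4b1 of 0.718 and 0.633. Each of the 3 Cyp4a genes with at least 50 UMIs in each segment was thus lower in ischemia in both, with intervals below 1. Cyp4a32, with 77 control and 57 ischemia UMIs in all cells, was not read in either segment. In the only PT sub-cluster where it was read its ratio was 1.80. Cyp4f17 moved the other way, with 5.18 and 9.06 CPM in early PT cells (1.75, 1.39 to 2.21) and 6.19 and 8.60 CPM in late PT cells (1.39, 1.10 to 1.76).

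The Cyp2j subfamily differed widely within itself. Cyp2j5, its most abundant member, was at 625 and 456 CPM in early PT cells (0.729, 0.711 to 0.748) and at 899 and 630.4 CPM in late PT cells (0.701, 0.686 to 0.717). Cyp2j11 was at 39.5 and 13.5 CPM in early PT cells (0.343, 0.299 to 0.391) and at 93.4 and 29.5 CPM in late PT cells (0.316, 0.288 to 0.346). Cyp2j13 had ratios of 0.479 and 0.414. Cyp2j7, at 4.59 and 1.22 CPM in early PT cells, had the lowest ratio of the members with at least 50 UMIs in both segments (0.266, 0.166 to 0.411, in early and 0.245, 0.160 to 0.364, in late PT cells), though on 110 and 26 UMIs in early PT cells. Cyp2j6 was at 13.6 and 12.2 CPM in early PT cells (0.900, 0.762 to 1.06), a difference within its counting error. Both intervals lay below 1 for each of Cyp2j5, Cyp2j7, Cyp2j9, Cyp2j11 and Cyp2j13.

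Of the Cyp2d genes, Cyp2d26 was at 144 CPM in control against 52.6 CPM in ischemia in early PT cells (0.365, 0.341 to 0.390), and at 48.6 and 13.5 CPM in late PT cells (0.277, 0.242 to 0.316). Cyp2d12 was at 80.5 and 31.7 CPM in early PT cells (0.393, 0.360 to 0.429) and at 46.2 and 27.5 CPM in late PT cells (0.595, 0.536 to 0.660). Cyp2d9, which was nearly confined to late PT cells, was there at 133 and 59.6 CPM (0.446, 0.417 to 0.477). Its 3′ end shares 23.7% of its sequence windows with other genes, so some of its reads may have been assigned to copies. Cyp2e1, which oxidizes ethanol and acetone and gives off reactive oxygen, was at 148 and 75.4 CPM in early PT cells (0.510, 0.480 to 0.541) and at 640.5 and 302 CPM in late PT cells (0.472, 0.458 to 0.486). Cyp2c23, an arachidonic acid epoxygenase of the kidney, had ratios of 0.702 and 0.566.

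The 2 Cyp2a genes measured were near their control level in late PT cells. Cyp2a4, a steroid hydroxylase, was at 140.1 CPM in control against 133.7 CPM in ischemia in late PT cells (0.955, 0.906 to 1.01), and its near copy Cyp2a5 was at 127 and 137 CPM (1.08, 1.02 to 1.14). In early PT cells Cyp2a5 was at 58.1 and 41.6 CPM (0.716, 0.657 to 0.779). The 3′ ends of Cyp2a4 and Cyp2a5 overlap in sequence over 37% of windows, so their levels are less certain than those of single-copy genes. Cyp2s1, which was at 0.543 CPM in control against 1.83 CPM in ischemia in early PT cells (3.38, 1.76 to 6.89), was the only CYP gene at least 2-fold higher there, on 13 and 39 UMIs.

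**Figure D3:**
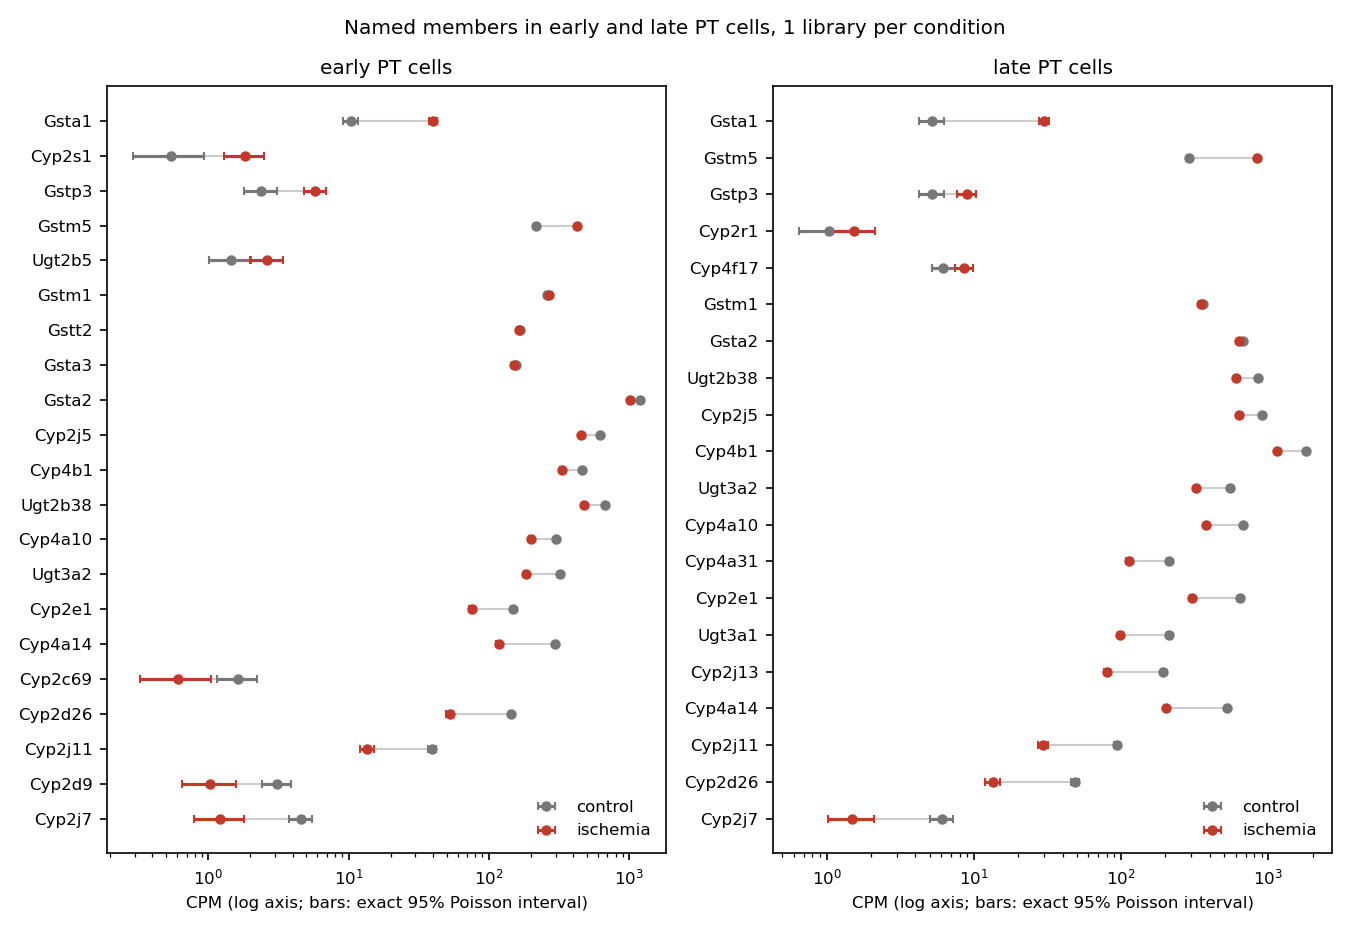
Levels of the members named by rule in early PT and late PT cells, in CPM on a log axis, with the control and ischemia libraries joined by a line and 95% Poisson intervals of counting error. Cyp4a14, Cyp2e1, Cyp2d26, Cyp2j11 and Cyp2j7 lie lower in ischemia in both segments, and Gsta1, Gstm5 and Gstp3 lie higher. Gstp3 in late PT cells did not stay higher in every setting of the closing section.

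The most abundant UGT members, Ugt2b38, Ugt3a2 and Ugt3a1, were lower in ischemia in both segments. Ugt2b38 was at 669 and 480 CPM in early PT cells (0.716, 0.699 to 0.734) and at 854 and 606 CPM in late PT cells (0.710, 0.694 to 0.726). Ugt3a2, which joins sugars other than glucuronic acid to its substrates, was at 323 and 183 CPM in early PT cells (0.566, 0.545 to 0.588) and at 550 and 324 CPM in late PT cells (0.589, 0.572 to 0.607). Ugt3a1 was at 46.5 and 29.9 CPM in early PT cells and at 212 and 98.6 CPM in late PT cells (0.464, 0.441 to 0.489), which made it the UGT gene with the lowest ratio in late PT cells. Lower-level UGT genes with ratios above 1 in early PT cells were Ugt2b5, at 1.46 and 2.63 CPM (1.80, 1.16 to 2.83), and Ugt2a3, at 2.05 and 3.10 CPM (1.52, 1.03 to 2.24). Ugt2b37 had 25.4 and 33.9 CPM in early PT cells (1.33, 1.20 to 1.49) and 71.8 and 76.6 CPM in late PT cells (1.07, 0.993 to 1.14). The Ugt1a genes share their last exons, so that 3′ reads there cannot tell them apart. How such reads were assigned cannot be seen from the counts. In control 1820 of the 2194 UMIs of these genes were assigned to Ugt1a7c, so their sum may not stand for all of them. This sum was 23.3 CPM in control against 14.2 CPM in ischemia in early PT cells (0.612, 0.530 to 0.705). In late PT cells it was 30.9 and 19.0 CPM (0.613, 0.540 to 0.696).

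The highest ratio in each segment belonged to a GST member, Gsta1, and the largest gain in level to another, Gstm5. In early PT cells Gstm5 was at 216 CPM in control against 427 CPM in ischemia (1.98, 1.91 to 2.05) and at 288 and 839 CPM in late PT cells (2.91, 2.83 to 3.0), on at least 5177 UMIs for each value. Gsta1 was at 10.4 and 40.1 CPM in early PT cells (3.86, 3.35 to 4.46) and at 5.15 and 29.7 CPM in late PT cells (5.77, 4.68 to 7.17). Gstp3 was at 2.38 and 5.78 CPM in early PT cells (2.43, 1.76 to 3.38) and at 5.15 and 8.92 CPM in late PT cells (1.73, 1.36 to 2.22). The other abundant GST genes moved little: Gsta2 had ratios of 0.849 and 0.948, Gsta3 of 0.964 and 0.895, Gstm1 of 1.05 and 0.972, and Gstt2 of 0.990 and 0.882. Gsta4, which is known for its action on the lipid peroxidation product 4-hydroxynonenal, was at 79.0 and 110.9 CPM in early PT cells (1.4, 1.32 to 1.49) and at 9.17 and 10.6 CPM in late PT cells (1.16, 0.948 to 1.41).

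The values for Gsta1 and Gsta2 carry a limit of sequence. Of the 60-base windows in the last 500 bases of Gsta1 transcripts, 89.6% also occur in Gsta2 or in the predicted genes Gm3776 and Gm10639. Gsta2 shares 56.7% of its windows, with Gm10639, Gsta1 and Gm3776 among its partners, whereas Gstm5 shares none of its windows. Gm3776 was at 1.71 CPM in control against 11.1 CPM in ischemia in early PT cells (6.48, 4.63 to 9.26) and at 0.495 and 4.25 CPM in late PT cells (8.59, 4.46 to 18.5). Gm10639 went the other way, from 42.5 to 15 CPM in early PT cells (0.354, 0.311 to 0.401) and from 8.72 to 4.35 CPM in late PT cells (0.498, 0.384 to 0.644). Counts of Gsta1, Gsta2, Gm3776 and Gm10639 are uncertain as values of single genes. Of the 63 members with at least 50 UMIs, 14 shared more than 20% of their windows with another gene and 31 shared none, Cyp2j11, Cyp2j13 and Cyp4a14 among them.

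Directions were also read across the 5 PT sub-clusters that held at least 50 cells in each library, the unsegmented ones included. Of 32 members read in all 5, 21 had ratios below 1 in each, 2 had ratios above 1 in each and 9 went both ways. The same count was not made over all genes, so these numbers do not set the members apart. The median ratio of all genes lay between 1.06 and 1.17 in the 5 sub-clusters. Among the 9, Cyp2a5 ranged from 0.624 to 1.47, Cyp2a4 from 0.874 to 1.29, Gsta4 from 0.872 to 2.68, Ugt2b37 from 0.955 to 1.61 and Gstt3 from 0.517 to 1.24. Cyp2e1 had ratios between 0.460 and 0.532 in the 5 sub-clusters, Cyp2j11 between 0.329 and 0.424, Cyp2d26 between 0.271 and 0.507 and Cyp4a14 between 0.355 and 0.577. Ugt3a2 lay between 0.566 and 0.646 and Gsta2 between 0.835 and 0.968. Gstm5 lay between 1.98 and 2.92. Gsta1 ranged from 2.52 to 25.8, and its highest ratio was in an unnamed sub-cluster of 696 control and 438 ischemia cells, where it was at 4.73 CPM in control against 122 CPM in ischemia.

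The share of cells with at least 1 UMI was compared after every cell was thinned to 10000 UMIs. In early PT cells Gsta1 was found in 7.25% of 648 control cells (95% Clopper-Pearson interval 5.38 to 9.53) and in 16.6% of 481 ischemia cells (13.4 to 20.3), beside 21.9% and 35.7% without thinning. Of late PT cells it was found in 3.13% (1.92 to 4.79) of 639 control and 12.5% (9.76 to 15.7) of 503 ischemia cells. In TAL cells, taken as a cell type in which PT enzymes should be scarce, the thinned shares of Gsta1 were 0.939% and 3.65%. Cyp2d26 went from 70.7% (67.0 to 74.2) to 33.9% (29.7 to 38.3) of early PT cells, with 4.93% and 1.95% in TAL cells. Cyp2e1 went from 95.5% (93.5 to 96.9) to 82.1% (78.5 to 85.4) of late PT cells, with 16.2% and 7.30% in TAL cells. Gstm5 was already in 86.7% of late PT cells of control and was in 99.0% of those of ischemia. Thinning left out 6 control and 4 ischemia cells of the early PT, 21 and 28 of the late PT, and 65 and 71 of the TAL. The median depth before thinning was 37546.5 and 43367 UMIs in early PT, 31590 and 43495 in late PT, and 20064 and 24720 in TAL cells.

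Genes that supply or control these enzymes were read from lists of 41 related genes, 37 of which had at least 50 UMIs in early and 36 in late PT cells. None of them was at least 2-fold lower in ischemia in either segment (1.95% and 3.65% of all genes were), and 2 were at least 2-fold higher in each, shares of 5.41% of 37 and 5.56% of 36 that lie near the 4.25% and 5.83% of all genes. Por, the reductase that passes electrons to P450 enzymes, was at 119 CPM in control against 79.3 CPM in ischemia in early PT cells (0.665, 0.626 to 0.707) and at 179 and 111 CPM in late PT cells (0.618, 0.587 to 0.651). Cyb5r3, a reductase of cytochrome b5, was at 56.0 and 82.3 CPM in early PT cells (1.47, 1.37 to 1.58). Ephx2, the soluble epoxide hydrolase that breaks down epoxides of arachidonic acid, had ratios of 0.740 and 0.748.

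For glutathione supply, Gclc, the catalytic subunit of the first enzyme of glutathione synthesis, was at 44.7 and 80.8 CPM in early PT cells (1.81, 1.68 to 1.95) and at 104 and 289 CPM in late PT cells (2.78, 2.64 to 2.92). Its modifier subunit Gclm had ratios of 1.33 and 1.52. The other genes of this supply list were not higher in ischemia by more than their intervals. Gss had ratios of 0.957 and 0.879 and Ggt1 of 0.969 and 0.724, with intervals below 1 in late PT cells only. Gsr had intervals that included 1 in both segments. Other glutathione enzymes were divided, with Mgst1, a microsomal transferase, at 1.49 and 1.38 and Gstz1, which acts in tyrosine breakdown, at 0.699 and 0.591. Ugdh, which makes the UDP-glucuronic acid that UGT enzymes use, had ratios of 1.30 and 1.6. In the same supply list Slc35d1 had ratios of 1.05 and 1.24, and Ugp2 was lower with 0.920 and 0.926. Of 11 regulators with at least 50 UMIs, 5 in early and 6 in late PT cells had intervals below 1, and 2 and 3 had intervals above it. Hnf4a had ratios of 0.799 and 0.637, Ppara of 0.653 and 0.805, and Nfe2l2, which encodes Nrf2, of 1.23 and 1.32. Nr1i2 was higher with 1.29 (1.05 to 1.57) and 1.38 (1.09 to 1.76). Ahr, the aryl hydrocarbon receptor, had 1.24 (0.828 to 1.85) and 1.90 (1.16 to 3.21), the latter on 25 control and 51 ischemia UMIs. Of 4 targets of Nrf2, Hmox1 had ratios of 2.27 and 3.07, Srxn1 of 1.68 and 1.82 and Txnrd1 of 1.47 and 1.17, whereas Nqo1 was lower with 0.762 and 0.826. The export pump Abcc2, which carries glutathione and glucuronide conjugates into urine, had ratios of 0.795 and 0.650.

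The early and late PT segments differed in the members they expressed, and several of these differences were seen in both libraries. In control, 13 of 47 members were at least 2-fold higher in late than in early PT cells, where 4.72% of all 11371 genes were, and 6 were at least 2-fold lower, where 5.38% were. In ischemia, 9 of 45 were higher (4.16% of 11432 genes) and 5 lower (5.2%). Of 44 members read in both libraries, 8 were higher in late PT cells by this fold in both and 4 were lower in both. The same count was not made over all genes, so the counts in both libraries do not set the members apart. The members were left out of the genes used for clustering, but Cyp2a4 and Cyp2d9 were among the 10 leading genes of the late and Ugt2b34 among those of the early sub-cluster, so these contrasts describe the segments and are not tests of them.

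Cyp2d9 was at 3.09 CPM in early and 133 CPM in late PT cells of control (ratio of late to early 43.2, 34.3 to 55.2), and at 1.03 and 59.6 CPM in ischemia (57.6, 37.9 to 92.3). Cyp2a4 had ratios of 31.7 in control and 30.6 in ischemia. Ugt3a1 (4.57 and 3.3), Cyp2e1 (4.33 and 4.01), Cyp4b1 (3.92 and 3.46), Ugt2b37 (2.83 and 2.26), Cyp2j11 (2.37 and 2.18) and Cyp2a5 (2.18 and 3.28) were also late-high in both libraries. Ugt2b34 was the member with the sharpest early pattern, at 70.6 CPM in early and 3.02 CPM in late PT cells of control (0.0428, 0.0326 to 0.0553) and at 57.7 and 1.76 CPM in ischemia (0.0304, 0.0214 to 0.0420). Gsta4 was at 79.0 and 9.17 CPM in control (0.116, 0.0992 to 0.135) and at 110.9 and 10.6 CPM in ischemia (0.0955, 0.0830 to 0.109). Cyp2d26 (0.336 and 0.256) and Ugt2a3 (0.460 and 0.269) completed the genes that were early-high in both libraries.

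**Figure D4:**
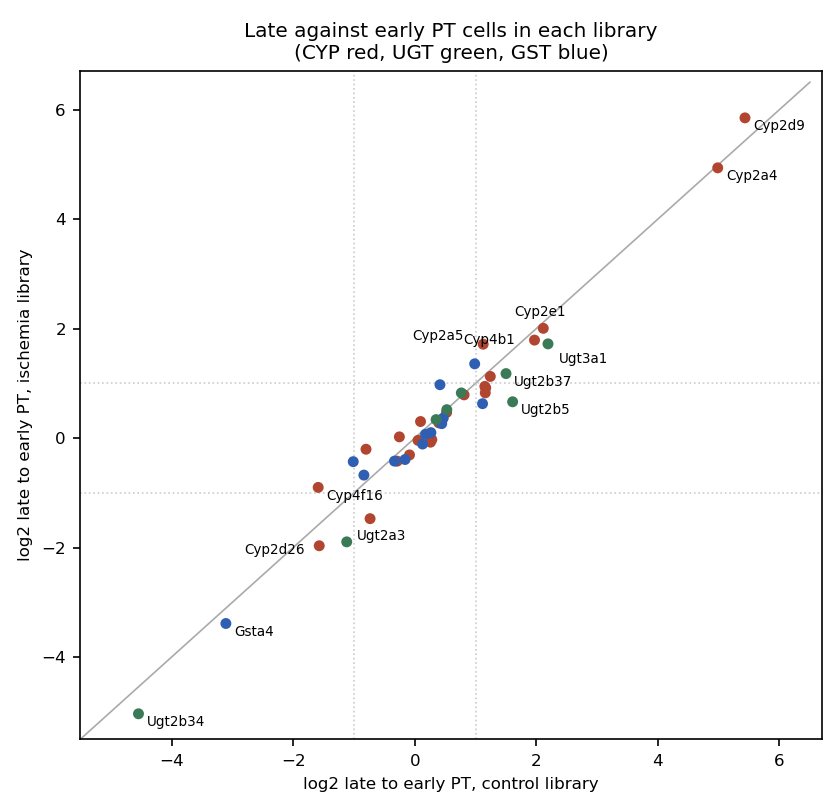
Log2 ratio of late to early PT CPM in the control library (horizontal axis) and in the ischemia library (vertical axis) for members with at least 50 UMIs in both. The diagonal marks equal ratios and dotted lines mark 2-fold. Points lie near the diagonal over the whole range, from Ugt2b34 and Gsta4 at the early end to Cyp2a4 and Cyp2d9 at the late end.

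The late PT class also held a sub-cluster of 17 control and 15 ischemia cells with the highest S3 marker sum. In its control cells Cyp2a4 was at 567.8 CPM (95% Poisson interval 503 to 639), Cyp2d9 at 338 CPM (288 to 393) and Cyp2j11 at 281 CPM, each above its level in late PT cells as a whole. With 15 cells at a median of 2677 UMIs, its ischemia cells were too shallow for a comparison of conditions.

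The 143 cells called injured PT in the ischemia library held 2162 CPM of early and 107 CPM of late markers, beside 4883 and 97.9 CPM in early PT cells and 1783 and 754 CPM in late PT cells, and members were set against both segments. Against early PT cells, 13 of 41 members were at least 2-fold lower (4.6% of all 10909 genes) and 2 higher (3.93%). Against late PT cells, 15 of 39 were lower (5.53% of all 10826 genes) and 4 higher (4.69%). The PT markers were lower in the same cells, with 9 of 15 at least 2-fold lower than in early PT cells and 13 of 15 than in late PT cells, and their part in these differences was not tested.

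Cyp2e1 was at 15.7 CPM in the injured cells, against 75.4 CPM in early PT cells (0.209, 0.171 to 0.253) and 302 CPM in late PT cells (0.0521, 0.0428 to 0.0628). Cyp4a14 was at 37.6 CPM (0.320 of early and 0.185 of late), Cyp2d26 at 16.9 CPM (0.321 of early) and Cyp2j11 at 3.97 CPM (0.294 of early and 0.135 of late). Cyp2d9 was at 1.56 CPM on 11 UMIs, or 0.0262 of its level in late PT cells. The GST members were not lower than in either segment by the fold, and Gsta1 was at 79.7 CPM, which is 1.99 times its level in early PT cells (1.78 to 2.21) and 2.68 times that in late PT cells (2.39 to 3.01). Gsta4 was at 171 CPM, above the 110.9 CPM of early PT cells and 16.1 times its level in late PT cells. Ugt2b37 was at 68.1 CPM, between its early level of 33.9 and late level of 76.6 CPM, and Cyp4f16, which acts on fatty acids, was at 4.82 CPM against 2.16 and 1.16 CPM. The summed GST level of the injured cells was 2335 CPM, near the 2268 and 2288 CPM of early and late PT cells, whereas the CYP sum was 886 CPM against 1511 and 3323 CPM.

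Outside the PT, single members were read only within limits of level. Either the level relative to PT-like cells exceeded 5 times the PT marker gauge there, or the member was highest in that cell type. In thin limb cells (87 control and 77 ischemia cells), Gstm1 had its highest level of any named cell type, at 1423 CPM in control against 401 CPM in ischemia (0.282, 0.262 to 0.304), and Gstm2 went from 435 to 78.9 CPM (0.181, 0.154 to 0.213). Gsta3, Gsta4 and Gstt3 met these limits here only in the control library, so the GST genes were counted without the limits. Of the 10 GST genes with at least 50 UMIs in this cell type, 6 were at least 2-fold lower, beside 7.1% of all 8081 genes. None was at least 2-fold higher, beside 4.6%. The summed level of the thin limb markers also went from 16479 to 10541 CPM, and that of the CD-PC markers described next from 8056 to 5338 CPM. In the principal cells of collecting ducts (CD-PC), Gstm1 was at 235 and 69.1 CPM (0.294, 0.270 to 0.319), Gstm2 at 269 and 97.7 CPM (0.363, 0.337 to 0.390) and Gsta4 at 134.0 and 78.7 CPM (0.588, 0.538 to 0.641). Gstt1, a theta-class transferase, was highest in these cells at 247 and 221 CPM (0.894, 0.844 to 0.947). The CD-PC cluster also had Aqp6, a gene of the intercalated cell marker list, among its leading genes. It may therefore hold some intercalated cells. The thin limb cluster had 3 genes of its own marker list among its leading genes, and also Psca, a gene of the urothelium list. Its values may therefore not be those of thin limb cells alone.

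**Figure D5:**
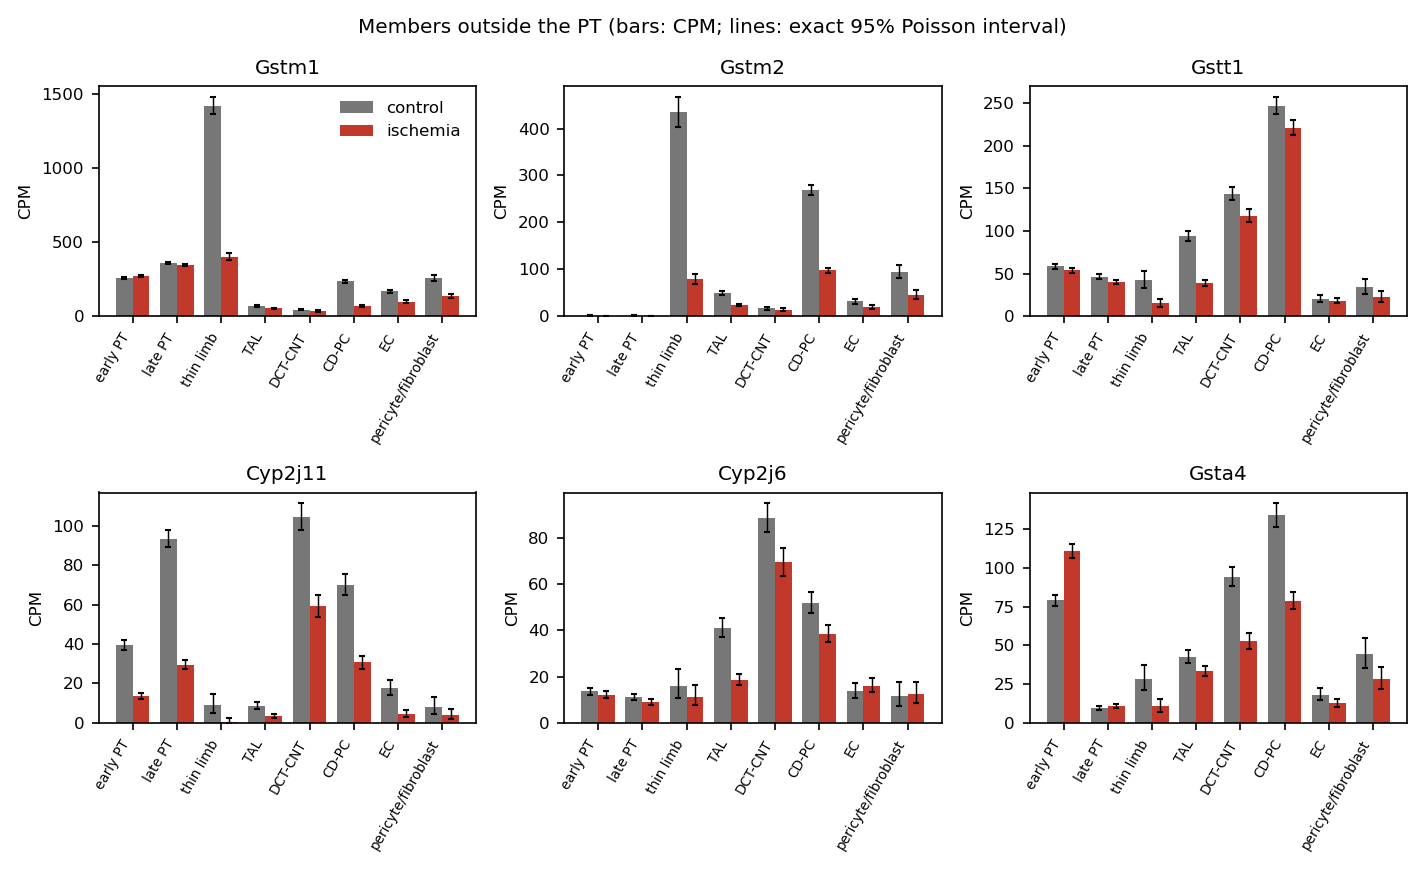
Levels of Gstm1, Gstm2, Gstt1, Cyp2j11, Cyp2j6 and Gsta4 in 8 cell classes, in CPM from 0, with bars for the control and ischemia libraries and 95% Poisson intervals of counting error. Gstm1 and Gstm2 stand highest in the thin limb of control, Gstt1 in CD-PC, and Cyp2j11 and Cyp2j6 in DCT-CNT.

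Epoxygenases of the Cyp2j subfamily were also found beyond the PT. In cells of the distal convoluted and connecting tubule (DCT-CNT), Cyp2j11 was at 104.6 and 59.2 CPM (0.566, 0.505 to 0.634), which is above its level in late PT cells in each library, and Cyp2j6 was at 88.7 and 69.5 CPM (0.784, 0.701 to 0.876). Cyp2u1, a fatty acid hydroxylase, was at 31.0 and 14.4 CPM in DCT-CNT (0.464, 0.369 to 0.581) and at 24.4 and 5.77 CPM in TAL cells (0.237, 0.180 to 0.309). In TAL cells Gstt1 was at 94.1 and 39.3 CPM (0.417, 0.374 to 0.466) and Cyp2j6 at 41.2 and 18.5 CPM (0.449, 0.381 to 0.529). The marker genes of these cell types were lower as well, with summed levels of 23879 and 9886 CPM in TAL and 20275 and 10852 CPM in DCT-CNT, and their part in these differences was not tested.

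A few members had their highest levels in intercalated cells or outside the tubule. The intercalated cluster had Slc26a4, Hmx2 and Insrr among its leading genes, while Aqp6 of the same marker list led in the CD-PC cluster. Values of the intercalated cluster may therefore not hold for all intercalated cells. In intercalated cells (58 control and 45 ischemia cells) Cyp2s1 was at 101 CPM (95% Poisson interval 83.0 to 121) in control and 61.5 CPM (46.3 to 80.0) in ischemia, and Cyp1a1, the classic target of the aryl hydrocarbon receptor, at 22.7 CPM (14.7 to 33.5) and 22.3 CPM (13.6 to 34.5), against at most 4.71 CPM in any other named cell type. Cyp1b1, which metabolizes estrogens, was at 36.2 and 50.6 CPM in pericytes and fibroblasts (1.4, 1.03 to 1.91) and at 28.4 CPM (18.7 to 41.3) and 66.5 CPM (41.7 to 101) in podocytes. Cyp2d22 was highest in endothelial cells at 41.4 and 30.7 CPM (0.741, 0.607 to 0.904). Cyp4f18, a leukocyte enzyme that hydroxylates leukotriene B4, was at 86.3 and 122 CPM in macrophages (1.41, 1.19 to 1.70) and at 162 CPM (141 to 187) in neutrophils of the ischemia library. The 33 control cells of the neutrophil cluster also held Gstm1 at 545 CPM and Cyp1b1 at 87.1 CPM, and were not read as neutrophil levels.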

How the data were processed

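The data were scRNAseq of kidney cells, with 1 control and 1 ischemia library. The authors deposited raw UMI counts per gene and barcode, made with Cell Ranger 7.0.0 on mm10 per the submitters' processing notes and not normalized. Kidneys were digested with enzymes before capture by 10x Genomics 3′ chemistry. No column belonged to an unmapped sample (0).

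The study's filters on cells were applied: 200 or more genes, UMIs from 500 up to 150000, and no more than 55% of UMIs from mitochondrial genes (12586 of 15110 control and 13116 of 15257 ischemia barcodes). Cells were clustered in R 4.3.3 (Seurat 5.3.0) with anchor-based integration, 2000 variable genes without the 114 members, 30 principal components, resolution 0.3 and seed 42. Scrublet (scanpy 1.11.5) marked 0 cells as doublets, so none were removed. Clusters were named from marker lists when at least 3 markers had 10 UMIs and the 10 leading genes held more markers of that list than of any other. No cluster so named had a median UMI count under 1/3 of that of its own library. PT cells were clustered again in the same way, into 8 sub-clusters.

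UMIs were summed per cell type and library and given as CPM with exact 95% Poisson intervals, and ratios with exact 95% binomial intervals. Genes with at least 50 UMIs in the 2 groups of cells together were read, and a ratio of at least 2 or at most 0.5 was past the fold. A count of 0 stood at 3 counts for log2 ratios. No test was made between conditions, since each has 1 library. Sums, intervals and plots were made in Python 3.11.15 (scipy 1.17.1, numpy 2.4.6, matplotlib 3.10.9, pandas 2.3.3). Tested on simulated Poisson counts, the intervals for early PT cells covered the true ratio for 95.9% of 11448 genes, and for late PT cells for 95.1% of 11277 genes. The simulation held no variation between cells, kidneys or libraries. This coverage therefore checks the calculation only and does not measure the spread of these data.

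Genes were named by rule: in each PT segment the 12 members with the highest CPM and the 5 highest and 5 lowest ratios, and in other cell types members with at least 20 UMIs that were highest there or exceeded 5 times the PT marker gauge. The members and lists were chosen with earlier results of these data known. Chromosome positions came from RefSeq promoter tables (GRCm38.p6) and 3′ ends from GENCODE transcripts of the same build. Values of 1 gene of the related lists and of 1 motif are not reported here. The alternatives tried are given in the closing section.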

Additional observations from a re-analysis of the deposited data

Results flagged for a closer look

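Cyp2a5 differed in direction between the PT segments, with the intervals of counting error on opposite sides of a CPM ratio of 1. Its ratio of ischemia to control was 0.716 (95% interval 0.657 to 0.779) in early PT cells, where it was at 58.1 and 41.6 CPM. In late PT cells its ratio was 1.08 (1.02 to 1.14), at 127 and 137 CPM. The median ratio of all genes was 1.07 in early PT cells and 1.06 in late PT cells, which lies within the late interval. Cyp2a5 also shares 37.4% of its 3′ sequence windows with other genes, Cyp2a4 among them. With 1 library per condition the difference between segments was not tested.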

How the results depend on the processing

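No paired analysis was possible because each condition is 1 library. Every value compares 1 control with 1 ischemia library and covers counting error only, and the cause of the changes between settings was not tested unless a setting itself reads fewer genes or cells. The main limits are the naming of PT segments and the depth: members under 50 UMIs were not read, and late PT cells could not be formed at 1000 UMIs or early PT cells at resolution 0.6. Injured cells could not be formed without integration, at 1000 UMIs or with the members kept among the variable genes. Scrublet marked 0 cells, so its alternative left the cells as they were. The gate, the other thresholds and the scalings were planned. Removal of the 8% of cells that scored highest as doublets, and the wider naming of PT sub-clusters were chosen after seeing the data.

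Ischemia against control in early PT cells gave 9 members lower and 3 higher. The lower count was 5 of 40 at 1000 UMIs per cell and 5 of 33 with at least 200 UMIs per gene. It was 2 of 45 without integration. Of all genes 2.42%, 1.24% and 0.957% were lower in these settings. The higher count was 1 in each of them, beside 3.95%, 2.83% and 1.29% of all genes. With the gate on marker UMIs per cell the higher count was 6 of 55, beside 6.69% of all genes. In late PT cells 8 were lower and 2 higher. The lower count was 4 of 32 at 25% mitochondrial UMIs (4.61% of all genes) and 2 of 43 without integration (1.71%). The higher count was 4 of 41 at resolution 0.6 (7.27% of all genes). In early PT cells 9 named members were past the fold (6 lower and 3 higher). Of these, 8 kept their direction in every setting that gave a value, and Cyp2c69 reversed at 1000 UMIs (log2 ratio 0.22). None of the 9 stayed past the fold in every setting. Cyp2d9 rose to a ratio of 0.521 and Cyp2d26 to 0.745, and Gsta1 fell to 1.64. In late PT cells, the 9 named members past the fold all kept their direction. Of them 2, the higher Gsta1 and Gstm5, stayed past the fold throughout, and no lower member did. Not all named members under the fold kept their direction. In late PT cells the ratio of Gstp3, higher in the main setting, fell as low as 0.812 and that of Cyp4f17 to 0.832. In early PT cells that of Ugt2b5 fell to 0.733. Cyp2r1 in late PT cells also went from higher to lower. Gstm1 in both segments and Gsta3 in early PT cells, which had moved little, went both ways.

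The median log2 ratio of CYP genes in early PT cells (-0.58) was -0.80 at 25% mitochondrial UMIs, -0.80 with the members kept, -0.41 without integration and -0.68 with scaling by the median of ratios, which moves the median of all genes by 0.10. In late PT cells (-0.70) it was -0.81 with wider naming, -0.81 over UMIs not encoded in mitochondria, -0.59 with the gate and -0.26 without integration. For UGT genes in early PT cells (-0.39) it was -0.51 at 1000 UMIs, -0.56 with at least 200 UMIs per gene, -0.65 at 25% mitochondrial UMIs, -0.60 with the gate, -0.59 with the members kept and -0.49 with the median of ratios. In late PT cells (-0.72) it was -0.61 with wider naming, -0.82 without mitochondrial UMIs, -0.60 with at least 20 UMIs per gene, -0.55 as a mean of each cell's CPM and -0.27 without integration. For GST genes in early PT cells (-0.05) it was above 0 with wider naming (0.0106) and without integration (0.0091), -0.23 at 25% mitochondrial UMIs and -0.15 with the median of ratios. In late PT cells (-0.16) it was -0.26 without mitochondrial UMIs and -0.30 at resolution 0.6.

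Between segments, 6 of 47 members were lower in late PT cells of control (5.38% of all genes) and 11 of 52 with the gate (9.51%). In ischemia 5 of 45 were lower (5.2% of all genes), and 3 of 36 with at least 200 UMIs per gene (3.23%). At 25% mitochondrial UMIs 8 of 41 were lower in ischemia, where 26.1% of all genes were. With the gate 10 of 51 were lower in ischemia, where 7.99% of all genes were. Against early PT cells, injured cells had 13 members lower and 2 higher. The lower count was 4 of 40 at 25% mitochondrial UMIs (8.16% of all genes), and the higher count was 9 there (11.3%). The higher count was 5 of 51 with at least 20 UMIs per gene (5.66%) and 4 of 41 as a mean of each cell's CPM (4.37%). It was 1 with at least 200 UMIs (2.47%), without mitochondrial UMIs (3.47%) or with the median of ratios (3.57%). Against late PT cells, 15 were lower and 4 higher. At 25% mitochondrial UMIs 5 and 1 of 26 were, beside 6.5% and 12.8% of all genes.

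The share of the members' UMIs in PT-like cells (81.6% in control and 81.8% in ischemia) was 83.7% and 83.4% without the cells of high doublet score, 48.6% and 44.9% at 1000 UMIs, 77.4% and 80.8% at 25% mitochondrial UMIs, 82.0% and 81.7% with the members kept, 73.7% and 76.3% at resolution 0.6, and 63.0% and 13.8% without integration.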
